A study of Mus musculus with 3 samples.

Results

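The binding of RXRα and RARα around 10 genes of iron homeostasis was described in mouse liver by chromatin immunoprecipitation followed by sequencing (ChIP-seq). The genes were taken by name as an iron homeostasis set: the regulators Hamp, Bmp6, Hfe2, Hfe and Tfr2, the transport genes Trf, Tfrc and Slc40a1, and the ferritin genes Fth1 and Ftl1. They are 10 of 22367 protein-coding genes that GENCODE M1 annotates on the NCBI37/mm9 genome, and all of them were found there, Tfr2 under its older name Trfr2. The tissue was whole liver of male wild type C57BL/6 mice aged 3 months, with no treatment named in the labels. There were 3 libraries: RXRα ChIP, input chromatin and RARα ChIP. Each was a library without a replicate, and the sources used here do not give the number of livers behind it. The values therefore describe these libraries, no test between conditions could be made, and the intervals given cover counting error only.

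Iron in the body has no regulated route of excretion, so its level is set by uptake and by release from stores. Hepatocytes secrete hepcidin, the product of Hamp, which binds the iron exporter ferroportin (Slc40a1) on macrophages, enterocytes and hepatocytes and causes its degradation. Hepcidin transcription is raised by BMP6 through BMP receptors and SMAD proteins, with hemojuvelin (Hfe2) as co-receptor and with HFE and transferrin receptor 2 (Tfr2) as sensors of iron-loaded transferrin. Inflammatory cytokines raise it through STAT3. RXRα and RARα are nuclear receptors that bind DNA as a heterodimer on direct repeats of a half-site close to AGGTCA, and RXRα also pairs with several other nuclear receptors.

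Binding was read in 3 ways. For RARα, the deposited peak list gives a score per peak, and peaks with a score greater than 20 are called filtered peaks. The list does not say what the score measures, so scores are compared only with other scores of the list. For RXRα and input, the deposited signal is coverage per 32 bp bin, which corresponds to 9999939 reads for RXRα and 9999292 for input, with a mean of 0.603 per bin in both. These totals are those of the deposited tracks and not of the sequencing, since the study states more uniquely mapped reads for RXRα, and how the tracks came to nearly the same total is not given in the sources used here. The intervals below rest on the deposited totals. An RXRα region is a run of bins in which RXRα was at least 20 times the input, where the input is the larger of the bin's own value and the mean. In a bin without input the ratio is therefore the RXRα signal over that mean. The highest ratio of a region and its highest RXRα signal can come from different bins. The RXRα enrichment of a RARα peak divides the average RXRα signal between its ends by the average input there, with the same lower limit on input. A peak was co-localized when it shared at least 25% of the narrower interval with an RXRα region. Distances run along the gene strand from the 5′ end of the gene, and negative values are upstream. As a check of the tissue, all 8 hepatocyte marker genes had a co-localized RARα peak within 10 kb, against 23.5% of all genes. It was present at 0 of 5 stellate, 0 of 5 endothelial and 0 of 5 Kupffer cell markers. Taken separately the contrast was smaller. A filtered RARα peak lay within 10 kb of 2 of 5 stellate, 3 of 5 endothelial and 0 of 5 Kupffer cell markers. An RXRα region lay within 10 kb of 0, 3 and 1 of them. Over all genes these shares were 52.2% and 39.8%. Over the bodies, 4 of 5 endothelial markers held an RXRα region, against 33.9% of all genes. These counts describe binding and not which cells the chromatin came from.

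Of the 10 iron genes, 9 had a filtered RARα peak within 10 kb of the start, against 52.2% of all protein-coding genes, and Hamp was the gene without it. An RXRα region lay within 10 kb of 9 genes, against 39.8% of all genes, and Bmp6 was the gene without it. A co-localized RARα peak lay within 10 kb of 7 genes, against 23.5% of all genes, the exceptions being Hamp, Bmp6 and Hfe. Over the gene bodies, 9 genes held a filtered RARα peak, against 42.5% of all genes, and 7 held an RXRα region, against 33.9%. Hamp, Tfrc and Ftl1 had no RXRα region over the body. In all, the iron genes had 36 filtered RARα peaks within 10 kb, of which 15 overlapped an RXRα region, and the median RXRα enrichment across the 36 peaks was 5.1. Over the 18093 filtered RARα peaks within 10 kb of any gene start, 33.1% overlapped a region and the median enrichment was 4.6.

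**Figure D1:**
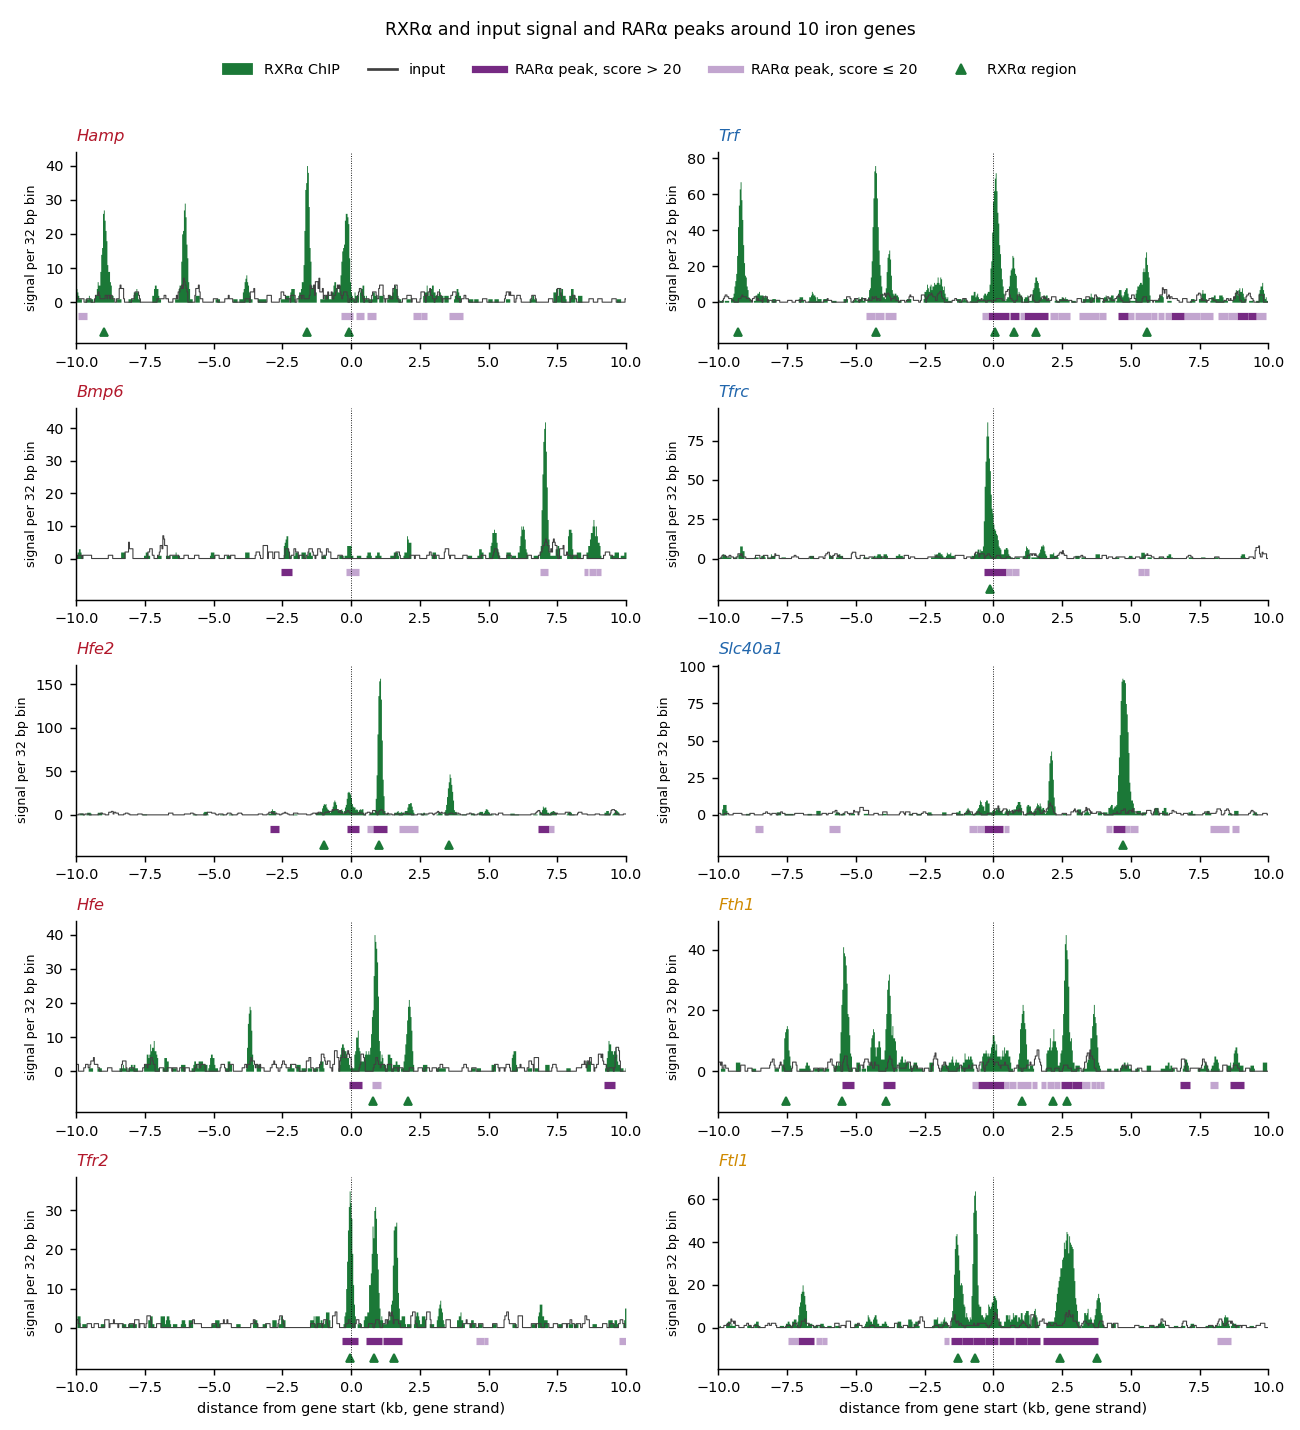
RXRα (green) and input (grey line) signal per 32 bp bin against distance from the gene start in kb, with RARα peaks as bars beneath (dark purple, score above 20; light purple, 20 or below) and RXRα regions as triangles; each panel has its own vertical scale. Gene names are red for regulators, blue for transport and orange for storage. The highest RXRα signal of Tfrc and Tfr2 stands at the start, that of Hfe2 and Slc40a1 inside the gene, and Hamp has RXRα regions but only light purple RARα peaks.

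Hamp (chr7:31727390-31729036, minus strand) had 3 RXRα regions within 10 kb and 0 filtered RARα peaks. Its 7 listed RARα peaks within 10 kb all had scores of 20 or below, and the highest, 19, belonged to a pair of peaks downstream of the gene. The promoter peak, chr7:31728981-31729390 with its summit at -79 bp, had a score of 17, just under the threshold. RXRα did stand over this promoter peak: its enrichment was 9.8, above that of 84.1% of the filtered RARα peaks at gene starts, and it held an RXRα region at -84 bp (chr7:31729089-31729152) with a highest ratio of 38.2, from a RXRα signal of 23 in a bin without input. The strongest region of Hamp lay at -1620 bp, in an exon of the neighbouring gene Usf2, with a RXRα signal of 40 against an input of 1. A weaker region lay at -8996 bp in an intron of Usf2, with a ratio of 27. A further RXRα summit at -6053 bp reached a signal of 29 but had an input of 6 beneath it, so its ratio was 4.83 and it was not counted.

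The 250 bases before the start of Hamp are shown because the region at -84 bp lies in them, chr7:31729037-31729286 of mm9, read on the gene strand. The capitals mark GGCGCC, whose first base is at -121, and a match to TTCNNNGAA, whose first base is at -109. GGCGCC is the core of BMP-responsive elements that SMAD proteins bind, and TTCNNNGAA is the form that STAT sites take.
Hamp upstream: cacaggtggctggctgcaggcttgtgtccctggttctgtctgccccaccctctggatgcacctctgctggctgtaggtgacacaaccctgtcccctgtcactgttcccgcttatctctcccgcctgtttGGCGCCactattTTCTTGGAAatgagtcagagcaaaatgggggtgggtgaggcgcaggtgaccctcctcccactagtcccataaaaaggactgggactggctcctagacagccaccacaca
No AGGTCA was found in this stretch. Across all promoters of 250 bases before to 50 after the start, 14.3% held GGCGCC and 7.94% held TTCNNNGAA, on either strand.

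Within 1 kb of the start of Hamp there were 66.2 read equivalents of RXRα and 23.4 of input, a ratio of 2.83 with a 95% interval of 1.76 to 4.83, and in a window of 500 bp the ratio was 4.31. A read equivalent is the summed signal divided by the 5 bins that 1 read covers. Over the short body of Hamp the ratio was 1, with an interval of 0.511 to 1.96, so RXRα stood upstream of the gene and not over it. The second mouse hepcidin gene, Hamp2, had neither a filtered RARα peak nor an RXRα region, and 12.8 RXRα against 9.8 input read equivalents within 1 kb, a ratio of 1.31 with an interval of 0.527 to 3.31. Hamp and Hamp2 are similar in sequence, and the study speaks of uniquely mapped reads, so reads that match both genes may be missing from either.

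Bmp6 (chr13:38436995-38592183, plus strand) encodes the ligand that reports iron load and is made mostly by sinusoidal endothelial cells. Within 10 kb of its start the highest bin ratio was 19.9, at 8814 bp, the lowest such ratio of the set. It came from a RXRα signal of 12 in a bin without input and lay just under the cut off of 20. The only filtered RARα peak of Bmp6 within 10 kb had a score of 28 and lay at -2360 bp, with an RXRα enrichment of 2.33. The RARα peak at the start itself scored 16 with an enrichment of 2.96. Within 1 kb the RXRα library held 10.6 read equivalents and input 4.0, so the ratio of 2.65 had an interval from 0.815 to 11.8 and was not separable from 1 at this depth. It was 7 in a window of 500 bp and 1.43 in a window of 2 kb. RXRα reached a signal of 42 at 7054 bp inside the gene, under a RARα peak of score 18, but the input there was 5 and the ratio 8.4. The only RXRα region of the 155189 bp body lay at 151853 bp, in an intron close to the 3′ end, with a highest ratio of 57 and a highest RXRα signal of 140, under a RARα peak of score 19. The nearest gene start to that region was that of Txndc5, so its assignment to Bmp6 rests on its position in the gene body alone.

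Hfe2 (chr3:96329108-96333139, plus strand), which encodes hemojuvelin, held the strongest RXRα region of the set. It lay in an intron at 1020 bp, chr3:96330049-96330208. Its highest ratio, 154, came from a RXRα signal of 93 in a bin without input. Its highest RXRα signal, 157, stood in another bin, at 1053 bp, with an input of 5. Over the 20 kb around the start, that highest ratio was above the highest ratio of 98.8% of all genes. A filtered RARα peak with a score of 43 lay over this region, with an enrichment of 18.1. The RARα peak at the start had a score of 21, on the edge of the threshold, with an enrichment of 7.15 and no region. Other RXRα regions lay at 3548 bp, in the exon that holds the 3′ untranslated region, with a ratio of 51.4, and at -996 bp with a ratio of 21.6. The filtered RARα peaks at -2793 bp and 7047 bp, of scores 32 and 29, had no RXRα region. Over the body the RXRα to input ratio was 7.86, with an interval of 5.6 to 11.3, above that of 99.3% of genes.

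The intron region, with 100 bases to each side of its midpoint, is shown as the site of the highest ratio, chr3:96330028-96330228, with AGGTCA and a match to TTGCNNAA in capitals, the latter being a form of C/EBP site.
Hfe2 intron: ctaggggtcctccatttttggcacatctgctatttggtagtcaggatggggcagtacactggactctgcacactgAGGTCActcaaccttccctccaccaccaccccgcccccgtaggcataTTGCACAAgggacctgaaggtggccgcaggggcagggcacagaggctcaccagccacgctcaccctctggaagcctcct
The first base of AGGTCA stood 995 bp from the start. It was not part of a direct repeat with a spacing of 0 to 5 bases.

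Hfe (chr13:23793903-23802723, minus strand), the gene mutated in the common form of hereditary hemochromatosis, had 2 filtered RARα peaks and 2 RXRα regions within 10 kb, and they did not coincide. The RARα peak at its start scored 31 with an enrichment of 3.18. The higher peak, of score 83, lay at 9453 bp, beyond the 3′ end, and was nearest to the start of the histone gene Hist1h4c. The RXRα regions lay in introns at 2067 bp, with a ratio of 34.8, and at 787 bp, with a ratio of 29.9. The region at 787 bp was under a RARα peak of score 16 that had an enrichment of 12.2. As at Hamp, an RXRα region thus lay over a listed RARα peak that missed the score threshold. Within 1 kb the RXRα to input ratio was 2.76, with an interval of 1.78 to 4.23, and in a window of 500 bp, which leaves out the region at 787 bp, it was 1.58.

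Tfr2 (chr5:138011079-138028709, plus strand), the hepatocyte's second transferrin receptor, had 3 filtered RARα peaks within 10 kb, and every one of them lay over an RXRα region. The start peak scored 87 with an enrichment of 14.1, with a region at -55 bp of ratio 32. The peaks at 896 bp and 1476 bp had scores of 31 and 42, over regions of ratios 49.8 and 25. Deeper in the body, a RARα peak of score 25 at 10566 bp covered 2 further regions, at 10377 bp and 10713 bp, with ratios of 23.2 and 39. The ratio within 1 kb was 8.15, with an interval of 4.52 to 16.5, and over the body it was 3.58, with an interval of 2.87 to 4.48. The strongest region within 10 kb, in an intron at 825 bp, is shown with 100 bases to each side of its midpoint, chr5:138011804-138012004.
Tfr2 intron: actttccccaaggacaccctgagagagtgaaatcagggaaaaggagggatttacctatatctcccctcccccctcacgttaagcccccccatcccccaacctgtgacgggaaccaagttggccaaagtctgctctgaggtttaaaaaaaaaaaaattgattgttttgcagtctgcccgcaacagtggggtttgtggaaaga
None of the motifs searched was found in this window, so it carries no capitals.

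Trf (chr9:103106331-103132774, minus strand), which encodes transferrin, the plasma iron carrier that hepatocytes secrete, had the highest RARα score of the set. The start peak had a score of 174 at 199 bp, higher than 98.8% of the filtered RARα peaks at gene starts, and an RXRα enrichment of 11.8. It covered an RXRα region of ratio 92.9 at 54 bp. There were 6 RXRα regions within 10 kb, of which those at -4282 bp and -9274 bp, with ratios of 58 and 69.7, lay upstream. No filtered RARα peak covered these upstream regions, although listed peaks of scores 18 and 14 met the region at -4282 bp. Within 1 kb there were 178.8 RXRα and 18.6 input read equivalents, a ratio of 9.61 with an interval of 5.86 to 16. The ratio was 15.3 in a window of 500 bp and 6.3 in a window of 2 kb. The annotation holds a second Trf entry that starts 137 bp downstream, and when only the nearest gene start was counted the filtered RARα peaks went to that entry.

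The upstream regions of Trf at -9274 bp and -4282 bp lie outside any gene. The stronger, at -9274 bp with a ratio of 69.7, held none of the motifs searched and is not shown. That at -4282 bp is shown, chr9:103136956-103137156, with 2 matches to TTCNNNGAA and a match to TTGCNNAA in capitals.
Trf upstream: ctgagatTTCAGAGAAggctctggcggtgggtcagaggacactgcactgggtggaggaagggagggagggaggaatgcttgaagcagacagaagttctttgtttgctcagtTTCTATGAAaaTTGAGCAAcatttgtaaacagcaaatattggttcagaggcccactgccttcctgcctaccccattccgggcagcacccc
AGGTCA was not found in this window, but it was found on the gene strand in the window of the region at the Trf start.

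RARα peaks tiled the body of Trf. There were 64 listed peaks in its 26444 bp, of which 17 were filtered, and together they covered 84.7% of the body, against a median of 1.84% over all genes. Among the 9718 genes of at least 20 kb, 99.8% were covered less than Trf. The RXRα signal did not follow: beyond 10 kb from the start, 42 listed RARα peaks held 0 RXRα regions and had a median enrichment of 1.11. Within the first 10 kb of the body, 4 of 22 listed peaks held a region. The highest scores away from the start were 73 at 22499 bp and 60 at 22309 bp, with enrichments of 4.24 and 1.77. The ferritin genes were covered to a like extent, Ftl1 over 92.5% and Fth1 over 87.7% of much shorter bodies, while Bmp6, Tfrc and Hfe were covered over 2.55%, 7.07% and 8.32%. The 8 hepatocyte marker genes had a median cover of 93.3%, against 2.18% for stellate, 5.74% for endothelial and 4.3% for Kupffer cell markers. Input was also high over these bodies: its mean per bin was 1.98 over the hepatocyte marker bodies and 1.59 over the Trf body, against 0.603 over the genome. It did not follow cover throughout. The Hamp body had the same 1.98 under a cover of 43.5%. Kupffer cell markers had more cover than stellate markers but less input, 0.398 against 0.499. The part of input in the tiling by RARα peaks was not tested.

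**Figure D2:**
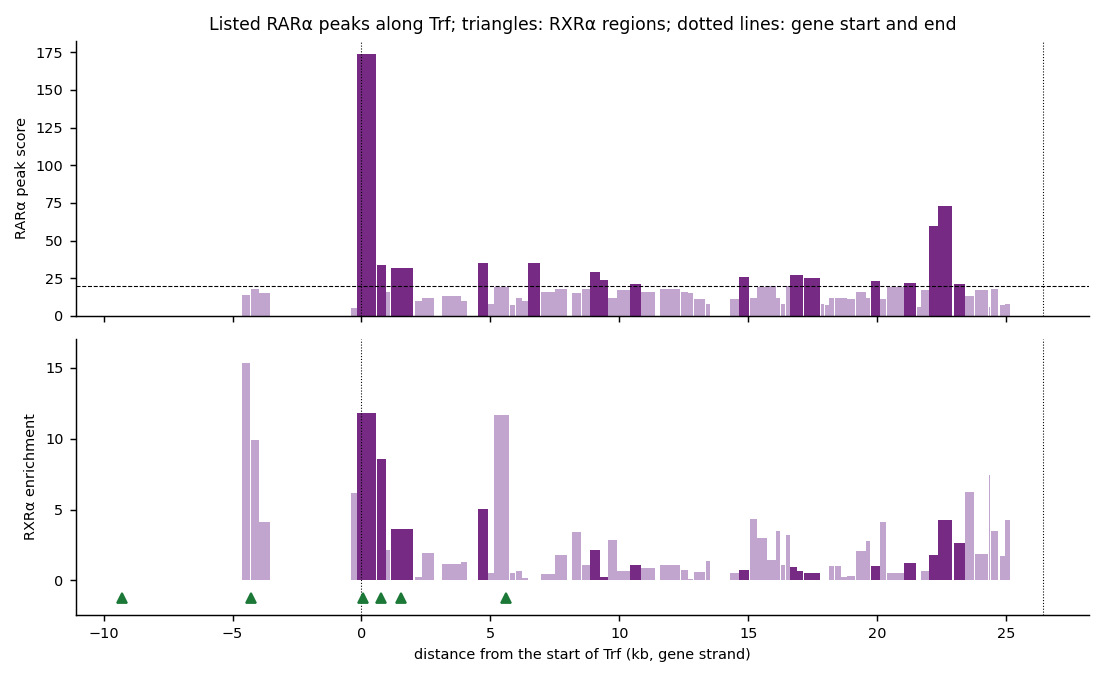
Score (top) and RXRα enrichment (bottom) of every listed RARα peak around Trf against distance from its start in kb; bar width is peak width, dark purple marks scores above 20 (dashed line) and triangles mark RXRα regions. RARα peaks run to the end of the gene, while the 6 RXRα regions lie between -9274 bp and 5606 bp.

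Tfrc (chr16:32609006-32632880, plus strand), transferrin receptor 1, which takes up transferrin-bound iron in most cells, had a simple pattern, with 1 filtered RARα peak and 1 RXRα region. The peak had a score of 98 with its summit at 79 bp. Its RXRα enrichment of 29 was the highest of the set at a start and above that of 99.2% of filtered RARα peaks at gene starts. The region, chr16:32608673-32609088, had its midpoint at -126 bp. Its highest ratio, 76.3, came from a RXRα signal of 46 in a bin without input. Its highest RXRα signal was 87, in another bin. Within 1 kb there were 167.0 RXRα and 15.4 input read equivalents, and the ratio of 10.8, with an interval of 6.56 to 20.3, was the highest of the set. In a window of 500 bp it was 19. Over the body the ratio was 1.19 with an interval of 0.897 to 1.56, and without the first 1 kb it was 0.865, so the RXRα signal stood at the promoter. The region is shown with 100 bases to each side of its midpoint, chr16:32608780-32608980, with GGCGCC in capitals.
Tfrc upstream: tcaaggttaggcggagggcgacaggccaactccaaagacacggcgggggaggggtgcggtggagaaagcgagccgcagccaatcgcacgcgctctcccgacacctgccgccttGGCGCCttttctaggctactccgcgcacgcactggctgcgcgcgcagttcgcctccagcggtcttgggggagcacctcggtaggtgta
GGCGCC, with its first base at -113, was the only motif found in the window. The same letters stand at -121 in Hamp. They were found in 5.84% of windows at RXRα regions within 10 kb of any gene, and in 14.3% of all promoters.

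Slc40a1 (chr1:45964915-45982439, minus strand), the iron exporter ferroportin, showed its RARα and RXRα maxima at different places. The RARα peak at the start had a score of 78, but its RXRα enrichment was 2.58, lower than that of most filtered RARα peaks at gene starts, whose median was 4.68. The only RXRα region within 10 kb lay in an intron at 4727 bp, chr1:45977505-45977920, with a ratio of 77 and a highest RXRα signal of 92. A RARα peak of score 21 at 4599 bp just passed the threshold there, with an enrichment of 26.3, and a neighbouring peak of score 16 had an enrichment of 32.9. A second RXRα summit, at 2102 bp, reached a signal of 43 over an input of 6 and was not counted. The ratio within 1 kb of the start was 2.4, with an interval of 1.47 to 4.23. It was the lowest point value of the set, but its interval overlapped those of Hamp, Bmp6, Hfe2, Hfe and Fth1. In a window of 500 bp the ratio was 2.61, above the 1.58 of Hfe. The intron site is shown with 100 bases to each side of its midpoint, chr1:45977612-45977812, on the gene strand, with AGGTCA (read here on the other strand, as TGACCT) and 2 matches to TTCNNNGAA in capitals.
Slc40a1 intron: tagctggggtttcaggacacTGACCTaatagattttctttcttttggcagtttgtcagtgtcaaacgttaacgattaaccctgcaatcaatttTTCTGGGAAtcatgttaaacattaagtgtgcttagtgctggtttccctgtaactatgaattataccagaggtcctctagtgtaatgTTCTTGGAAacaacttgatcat
The match that begins 4806 bp from the start, TTCTTGGAA, has the same 9 letters as the match in the Hamp promoter.

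The ferritin genes Fth1 (chr19:10057193-10059582, plus strand) and Ftl1 (chr7:52713314-52715254, minus strand) encode the heavy and light subunits of the shell that stores iron in the cell. Both had very high RARα scores at the start, 132 for Fth1 and 158 for Ftl1, above 96.4% and 98.1% of filtered RARα peaks at gene starts. RXRα enrichment at these start peaks was 2.33 and 3.56, above only 16.4% and 35.3% of them, and neither start peak held an RXRα region.

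RXRα stood beside the ferritin starts. Fth1 had 6 RXRα regions within 10 kb, at -7529, -5513, -3897, 1047, 2183 and 2663 bp, with ratios between 23.2 and 44.8. Filtered RARα peaks of scores 24, 26 and 22 lay over those at -5513, -3897 and 2663 bp. The region at 2663 bp overlaps an untranslated exon of Best1, the gene beyond the 3′ end of Fth1. Ftl1 had 4 RXRα regions, of which the strongest, at -682 bp, reached a RXRα signal of 64 over an input of 1. The region at 2438 bp, downstream of the gene, lay with that at 3782 bp under a RARα peak 2011 bp wide with a score of 117. Of the 9 filtered RARα peaks of Ftl1 within 10 kb, that at -6916 bp, of score 32, was nearest to the start of Bax, 7014 bp away from that of Ftl1. The ratio within 1 kb was 2.61 for Fth1, with an interval of 1.56 to 4.35, and 7.97 for Ftl1, with an interval of 4.93 to 14.4. In a window of 500 bp the Ftl1 ratio was 3.59, since the region at -682 bp falls outside it.

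**Figure D3:**
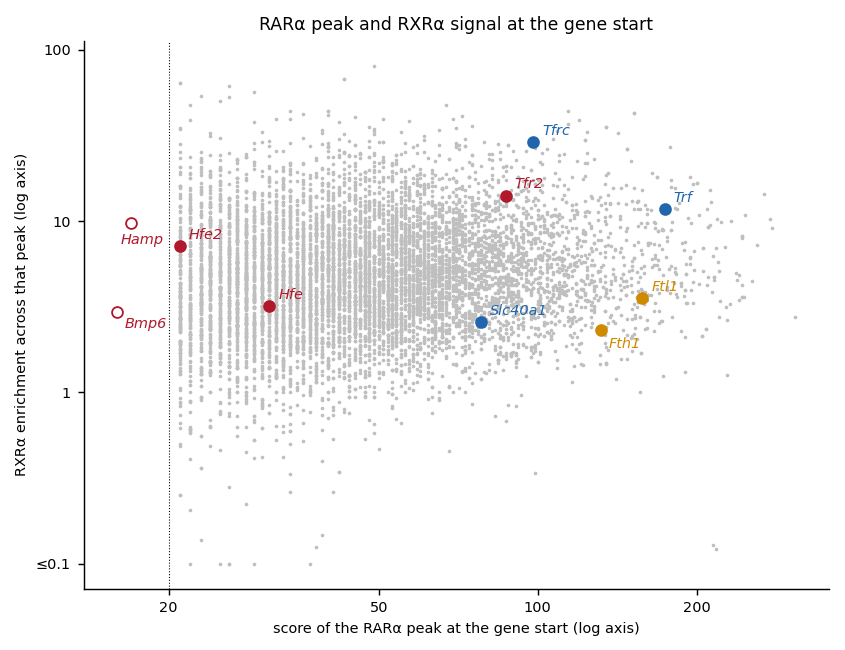
Score of the highest RARα peak within 1 kb of a gene start against RXRα enrichment across that peak, both on log axes; grey points are the 9140 genes with a start peak above 20 (dotted line), coloured points are the iron genes (red, regulators; blue, transport; orange, storage) and open circles have scores of 20 or below. Slc40a1, Fth1 and Ftl1, at scores of 78 to 158, lie below Tfrc, Tfr2 and Trf, at scores of 87 to 174.

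The starts of the iron genes thus fell into different combinations. Tfrc, Tfr2 and Trf had start peaks with scores of 87 to 174 and RXRα enrichments of 11.8 to 29. Slc40a1, Fth1 and Ftl1 had scores of 78 to 158 and enrichments of 2.33 to 3.56, below the median of 4.68 over the 9140 genes with a filtered RARα peak at the start. The lower quartile of these genes was 2.86, and Ftl1 lay above it. Within 1 kb, which takes in the region at -682 bp, the RXRα to input ratio of Ftl1 was 7.97, near the 8.15 of Tfr2. Hamp had a RARα score of 17 and an enrichment of 9.8, and Bmp6, Hfe2 and Hfe had scores of 16, 21 and 31 with enrichments of 2.96, 7.15 and 3.18. Over the set, the median ratio of RXRα to input within 1 kb was 3.63, against 1.79 over all genes and 5.73 at their 90th percentile. The lower bounds of the intervals lay above 1.79 for Hfe2, Tfr2, Trf, Tfrc and Ftl1, and below it for Hamp, Bmp6, Hfe, Slc40a1 and Fth1.

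**Figure D4:**
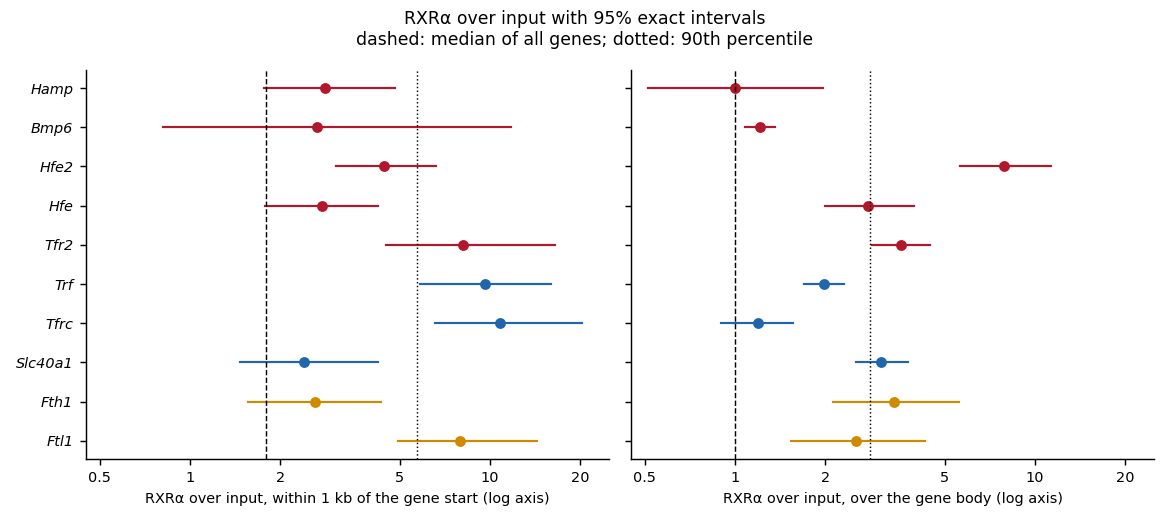
RXRα over input within 1 kb of the gene start (left) and over the gene body (right) on log axes, with 95% exact intervals that cover counting error only; the dashed line is the median of all genes and the dotted line their 90th percentile. Tfrc, Trf and Tfr2 have the highest ratios at the start, and Hfe2 has the highest over the body.

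The promoters differed in CpG content, which the choice of genes did not use. The observed over expected CpG from 250 bases before to 50 after the start was at least 0.6 for Bmp6, Tfrc, Slc40a1, Fth1 and Ftl1, with values between 0.667 and 0.922. It was between 0.147 and 0.348 for Hamp, Hfe2, Hfe, Tfr2 and Trf. A filtered RARα peak within 1 kb was present at 70.2% of all genes with a ratio of at least 0.6 and at 16.7% of the others. In the iron genes it was present at 4 of 5 in each class, Bmp6 and Hamp being the exceptions. Among all genes with such a start peak, median enrichment was 4.55 in the CpG-rich class and 5.29 in the other, and the CpG-rich iron genes spanned enrichments from 2.33 at Fth1 to 29 at Tfrc.

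Direct repeats of the nuclear receptor half-site were searched on both strands, 100 bases to each side of a summit or region midpoint. Each half-site was AGGTCA or a form of it with G in the first or T in the third place, and the spacing was 0 to 5 bases. The 48 windows at filtered RARα summits of the iron genes and the 32 windows at their RXRα regions, within 10 kb or over the bodies, held 0 such repeats. Over all windows within 10 kb of a gene start these repeats were also rare, at 0.702% of RARα summits and 3.66% of RXRα regions. Counted like these backgrounds, within 10 kb only, the half-site AGGTCA alone was found in 6 of 36 RARα windows of the iron genes (16.7%), against 11.5% of all RARα windows, and in 7 of 29 RXRα windows (24.1%), against 30% of all RXRα windows. It lay in the windows of RXRα regions of Hfe2, Hfe, Tfr2, Trf, Slc40a1 and Ftl1. TTCNNNGAA was found in 6 of the 29 RXRα windows (20.7%), at Hamp, Hfe, Trf, Slc40a1 and Fth1, against 9.39% of all RXRα windows. At RARα summits it was found in 1 of 36 windows (2.78%), at Trf, against 4.55% of all RARα windows. Windows that overlap share sequence, and a match describes letters and not a bound site.

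A list of 36 other iron genes, drawn up from their textbook roles with earlier results of these data known, gave the setting for these values. Of these, 31 (86.1%) had a filtered RARα peak within 10 kb, against 52.2% of all genes. At the same distance, RXRα regions were found for 24 (66.7%, against 39.8%) and co-localized RARα peaks for 21 (58.3%, against 23.5%). In the gene bodies, filtered RARα peaks were found for 26 (72.2%, against 42.5%) and RXRα regions for 24 (66.7%, against 33.9%). The highest RARα scores within 10 kb were 136 at Hpx, which encodes the heme carrier hemopexin, 121 at Ncoa4, the receptor that delivers ferritin to lysosomes, and 120 at Smad7, an inhibitor of BMP signalling to hepcidin. The highest RXRα ratios were 200.8 at Steap3, a ferrireductase of the endosome, 151 at Nfe2l2, which encodes the stress factor NRF2, and 81.3 at Hpx. The lowest ratios within 1 kb of the start were 0.118 at Steap3, 0.667 at Fam132b, which encodes erythroferrone, and 0.682 at Bmp2, another BMP ligand for hepcidin. The Steap3 ratio rests on 0.8 RXRα and 6.8 input read equivalents, and its interval, 0.00317 to 1.11, includes 1. So do the intervals of Fam132b, 0.195 to 2.1, and Bmp2, 0.261 to 1.75, and none of these ratios was separable from 1 at this depth. At Steap3 the highest region and the lowest start ratio thus belonged to the same gene, since its regions lay away from the annotated start.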

How the data were processed

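ChIP-seq libraries of RXRα, input and RARα from mouse liver were used, 1 of each. Per the labels, reads were processed with CASAVA 1.4 and Bowtie and peaks called with MACS. The signal that the authors deposited for RXRα and input is whole-number coverage in 32 bp bins, which corresponds to 9999939 and 9999292 reads in the deposited tracks. For RARα the authors deposited 143280 peaks with a score and a false discovery rate in percent, which was at most 4.75 and was not used. The meaning of the score is not given with the list. The list holds no read counts, so the RARα depth that the study states enters no value here. The methods of the study name different builds for alignment and annotation. The signal files name mm9 and 0 peaks pass a chromosome end of that build, so NCBI37/mm9 was used.

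The tracks were scaled to the same mean. The RARα score threshold of 20 and the distance of 10 kb follow the study. Its RXRα peak calls were not used here. RXRα regions were derived from the bins with its cut off of 20 times input, with 3 additions of the present work: input had a lower limit, nearby bins (up to 200 bp apart) were joined, and the 25% overlap was taken on the shorter of both intervals. Every peak within 10 kb of a 5′ gene end was counted for that gene. Ratios have exact (Clopper-Pearson) 95% intervals from read equivalents. The calling of regions and their overlap with peaks were tested on simulated data, and the assignment to genes on made-up positions. Ratios, intervals, enrichments, body cover, CpG content and motif searches were not tested in this way. Gene starts, exons and sequences came from GENCODE M1 and its genome, and Tfr2 was matched by a RefSeq synonym. All 10 iron genes, their neighbours and the 3 highest or lowest of the 36 other iron genes per measure were named by rule. Usf2, Txndc5, Hist1h4c and Best1 were named after their values were seen, as were the printed sites. The iron genes and lists were chosen with earlier results of these data known. The tools were scipy 1.17.1, pandas 2.3.3, numpy 2.4.6, pysam 0.24.0 and matplotlib 3.10.9 under Python 3.11.15.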

Additional observations from a re-analysis of the deposited data

How the results depend on the processing

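Each count of iron genes was recomputed with other score, input, distance and overlap settings. With a RARα score greater than 50, co-localized RARα peaks were left at 4 genes (10.9% of all genes), without Hfe2, Slc40a1 and Fth1, and RARα peaks over the body at 5 genes (17% of all genes). With a distance of up to 1 kb, 4 genes had a co-localized RARα peak (15.8% of all genes), since the sites of Hfe2, Slc40a1 and Fth1 lie farther away. All other settings kept the counts within 1.5 times. Without a score threshold Hamp and Hfe joined the co-localized genes, which made 9, against 31.2% of all genes. At 10 times input, or with the genome mean as the only input, Bmp6 gained an RXRα region and the count was 10, while the share of all genes rose to 60.2% and 52%. Of the ratios per gene, 2 of 10 moved out of their interval in a window of 500 bp (Hfe to 1.58 and Ftl1 to 3.59), 0 of 10 in a window of 2 kb, and 3 of 10 over the body without its first 1 kb. Within wide intervals, Bmp6 moved to 7 and 1.43 in windows of 500 bp and 2 kb, Trf to 15.3 and 6.3, and Tfrc and Hamp to 19 and 4.31 in 500 bp. Over the body without its first 1 kb, Hfe moved to 1.61, Trf to 1.57 and Tfrc to 0.865, out of their intervals. Ftl1 moved to 1.57, within its interval. No paired analysis was possible because each antibody had 1 library. The depth left 4.0 to 35.2 input read equivalents within 1 kb of a start, which sets the width of the intervals.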

Other observations

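The ferritin genes have processed copies elsewhere in the genome that share their exons. The mean input signal per bin was 1.86 in exons and 1.45 in introns of Fth1, and 1.84 and 1.94 in those of Ftl1. In Trf and Hfe2, exons had less input than introns, 0.971 against 1.67 and 1.27 against 1.76. RXRα signal was higher in introns than in exons of Hfe2, 16.5 against 7.33 per bin, and of Hfe, 3.62 against 0.795, and the strongest RXRα region of each lay in an intron. Introns were also higher in Slc40a1, 4.07 against 2.02. In Trf and Hamp exons were higher, 5.74 against 2.77 and 2.64 against 1.8, and in Tfr2 and Fth1 exons and introns were close. Beyond the filtered peaks, 70 RARα peaks with scores of 20 or below were listed within 10 kb of the iron genes. The median enrichment over these 70 peaks was 1.86. Of them, 8 overlapped an RXRα region, with enrichments from 7.04 at Fth1 to 32.9 at Slc40a1.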
